A study of Mus musculus with 2 samples.

Results

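The replication-dependent histone genes encode the H1, H2A, H2B, H3 and H4 proteins that package newly copied DNA. They were taken as the protein-coding genes of the GENCODE M21 annotation (mouse build mm10, also called GRCm38) whose symbols start with Hist1h, Hist2h, Hist3h or Hist4, which gave 67 of 21853 protein-coding genes. By type they were 6 H1, 18 H2A, 18 H2B, 12 H3 and 13 H4 genes. The Hist1 cluster on chromosome 13 held 54 of them in 2 blocks, 23 genes at chr13:21715763-22043676 and 31 genes at chr13:23531050-23934851. The Hist2 cluster at chr3:96219865-96270132 held 10 genes, the Hist3 locus at chr11:58948920-58956830 held 2, and Hist4h4 stood alone at chr6:136801553-136804415.

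Chromatin accessibility was measured by ATAC-seq, a method that tags open DNA with adapters carried by the Tn5 transposase, in megakaryocyte-erythroid progenitors from 5 to 6 week old male C57BL/6J mice. These bone marrow cells give rise to red cells and platelets. There was 1 group of 2 libraries, labelled biological replicates 1 and 2, with 50000 cells in each. Both name the same donor entry, so separate animals are not stated, and the spread between them may be technical. No condition was compared, and the comparisons below set the histone genes beside all protein-coding genes of the same libraries.

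Replication-dependent histone genes are transcribed mainly in S phase, when dividing cells need histones in bulk. They lack introns as a rule, and their messages end in a stem-loop bound by Slbp in place of a poly(A) tail. Npat, a substrate of the cyclin E kinase, gathers at the clusters with Casp8ap2 in nuclear histone locus bodies and drives their transcription. Many H2A and H2B genes stand head to head and share 1 promoter.

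The values are the authors' peak lists. A list thresholded on the irreproducible discovery rate (IDR), which scores the repeatability of peak ranks, gave 26353 merged regions in replicate 1 and 28142 in replicate 2. The longer pseudoreplicated lists and a conservative list of both libraries together, with 46200 regions, were used beside them. The fold of a region is a column of the authors' lists, read here as enrichment over local background from its values and place. It was not scaled between libraries. The files used hold no read counts, so the depth behind a fold is unknown. Among marker genes of erythroid and megakaryocyte progenitors, Gata1, Klf1, Epor, Kit, Tfrc, Nfe2 and Zfpm1 had an accessible promoter in both libraries, and Gfi1b and Itga2b did not. The counts were 0 of 6 for granulocyte and monocyte, 2 of 6 for lymphoid (Ebf1 and Pax5) and 0 of 4 for mast cell and basophil genes.

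Most histone genes had an accessible promoter. Within 1 kb of the transcription start site (TSS), 58 of 67 histone genes had a region in the IDR-thresholded lists of both libraries (86.6%), beside 45.7% of all protein-coding genes. In the pseudoreplicated lists the counts were 63 of 67 histone genes (94%) and 56.5% of all genes. Replicate 1 alone held 59 of the genes and replicate 2 alone held 60. By cluster, the promoters were accessible in both libraries for 45 of 54 Hist1 genes, 10 of 10 Hist2 genes, 2 of 2 Hist3 genes and Hist4h4. By type, the counts were 4 of 6 H1, 17 of 18 H2A, 17 of 18 H2B, 9 of 12 H3 and 11 of 13 H4 genes.

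The regions behind these calls were fewer than the genes, since windows of neighbours overlap. In replicate 1, 59 genes rested on 39 distinct regions, and in replicate 2, 60 genes rested on 40. Of these regions, 19 in each library served more than 1 histone gene. A stricter rule therefore asked for a peak summit within 300 bp of the gene's own TSS. It was met in both libraries by 54 of 67 histone genes (80.6%), beside 42.4% of all genes. In the pseudoreplicated lists 61 histone genes (91%) met it, beside 52.1% of all genes. The rule does not separate head-to-head genes, since 1 summit between TSSs 176 to 306 bp apart can count for both. For 11 pairs of H2A and H2B genes it did, so the 54 genes do not rest on 54 separate summits.

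The accessible histone promoters were common but of modest fold. Over the 58 genes the median fold was 6.02 in replicate 1 and 6.22 in replicate 2 (mean 6.12 ± 0.140, SD, n = 2), against 8.39 and 8.83 over the 9988 accessible promoters of all genes. As the mean of the libraries, 0 of 58 lay above the median of all accessible promoters (8.62), and 44 lay below their lower quartile (7.03). The significance of the same regions was closer to the rest. Median −log10 p was 44.1 in replicate 1 and 48.1 in replicate 2 for histone genes, against 47.9 and 50.01 for all genes. In that measure 25 of 58 lay above the median of all accessible promoters (49.0) and 11 below the lower quartile (34.4).

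Most histone regions were narrow and stood close to others. Their median width was 445 bp in replicate 1 and 442.5 bp in replicate 2, against 820 and 822 bp for all accessible promoters. The regions of H1 genes (1472 and 1489.5 bp) and of the Hist2 cluster (1064 and 1056 bp) were wider. In the 10 kb around the TSS, regions covered a median of 13.9% in replicate 1 and 13.8% in replicate 2 for accessible histone genes, against 9.06% and 9.14% for all accessible genes. The fold is read as enrichment over local background, and the part of this spacing in the lower folds was not tested.

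**Figure D1:**
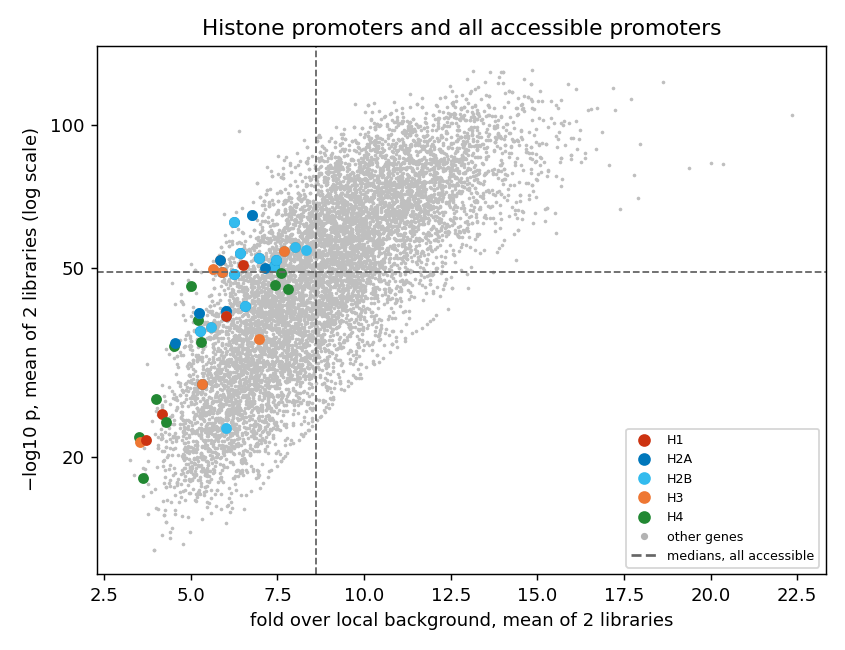
Mean fold over local background (x) and mean −log10 p (y, log scale) of the promoter regions of 58 histone genes, coloured by type, and of the other accessible promoters in grey, with genes that share a region lying on one another. Dashed lines are the medians of all accessible promoters, 8.62 and 49.0: every histone point lies left of the first, and 25 lie above the second.

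By type, H2A and H2B promoters had the higher folds and H1 and H4 promoters the lower. The median fold was 6.30 ± 0.0427 for H2B, 6.26 ± 0.0193 for H2A, 5.90 ± 0.229 for H3, 5.09 ± 0.237 for H1 and 4.97 ± 0.0873 for H4 (SD of the library medians, n = 2). The gap between H2A and H2B, which share many regions, was smaller than the larger of their SDs, and so was that between H1 and H4. These SDs do not measure the spread among genes, and the mean folds of H4 genes ran from 3.51 to 7.80. Hist2 genes had a median of 6.68 in replicate 1 and 7.60 in replicate 2, and Hist1 genes had 5.95 and 6.22. The strongest region within 1 kb can belong to a neighbour or lie past the stop codon. With the summit at the gene's own TSS, H1 had medians of 4.25 in replicate 1 and 4.22 in replicate 2, below the 4.63 and 4.30 of H4. They were 5.61 and 5.69 for H3, 6.27 and 6.24 for H2A, and 6.33 and 6.27 for H2B.

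The highest folds came from H2B and H4 genes, and from H3 genes only through a region shared with an H2B neighbour. Hist1h2bm, an H2B gene at chr13:21722044-21722567, had folds of 7.68 in replicate 1 and 8.996 in replicate 2. The H3 gene Hist2h3b and the H2B gene Hist2h2bb had 7.88 and 8.13, from 1 region whose summit lay at the TSS of Hist2h2bb, upstream by 150 bp in replicate 1 and 126 bp in replicate 2. Hist2h3b itself had no summit within 300 bp of its TSS in either IDR-thresholded list.

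Hist1h4j, an H4 gene at chr13:21735064-21735837, had 7.21 in replicate 1 and 8.40 in replicate 2. The H2B gene Hist1h2bh had 8.11 in replicate 1 and 7.28 in replicate 2, again from a region it shared, here with the H3 gene Hist1h3f. Hist1h3f itself had no summit within 300 bp of its TSS in either IDR-thresholded list. A separate region in its exon, chr13:23544176-23544540 in the conservative list, just missed that limit, with its summit 305 bp from the TSS. This region had 6.14 in replicate 1 and 6.37 in replicate 2. The start codon of Hist1h3f lies 433 bp from its GENCODE TSS. Only Hist1h2bm, in replicate 2 alone, passed the median of all accessible promoters.

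Most of the lowest folds lay together in the second Hist1 block, at the last histone genes before the distant pair Hist1h2ba and Hist1h2aa. Hist1h4a had 3.51 in replicate 1 and 3.51 in replicate 2, and its neighbour Hist1h3a had 3.51 and 3.56. Hist1h4b, next to them, had 3.71 and 3.55, and the H1 gene Hist1h1a had 3.46 and 3.96. These 4 genes lie within chr13:23757013-23764406. The fifth, Hist1h4n of the first block, had 4.25 in replicate 1 and 3.77 in replicate 2.

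In the Hist2 cluster every gene had a region in both libraries. Hist2h4, the H4 gene, had 8.14 in replicate 1 and 7.08 in replicate 2 from a region of its own. Hist2h2ab, Hist2h2ac and Hist2h2be (H2A, H2A and H2B) rested on 1 region, with 6.68 and 8.12. Hist2h2ab had a summit at its own TSS in the pseudoreplicated lists alone, with 3.68 and 3.39. The pairs Hist2h3c2 with Hist2h2aa2 and Hist2h3c1 with Hist2h2aa1, an H3 and an H2A gene each in partly repeated sequence, had 5.61 and 6.09, and 5.74 and 6.06.

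At the Hist3 and Hist4 loci the values were of the same order. Hist3h2a, an H2A gene, had 6.70 in replicate 1 and 7.57 in replicate 2, and Hist3h2ba, an H2B gene, had 6.22 and 5.81. Hist4h4 had 5.03 and 4.98.

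The libraries repeated these folds with a median absolute difference of 0.472 over the 58 genes. The fold was higher in replicate 1 for 22 genes and in replicate 2 for 36. Hist1h2af, an H2A gene, differed most, with 3.45 in replicate 1 and 5.63 in replicate 2. In replicate 2 its region was the one that also covered its neighbour Hist1h3g.

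**Figure D2:**
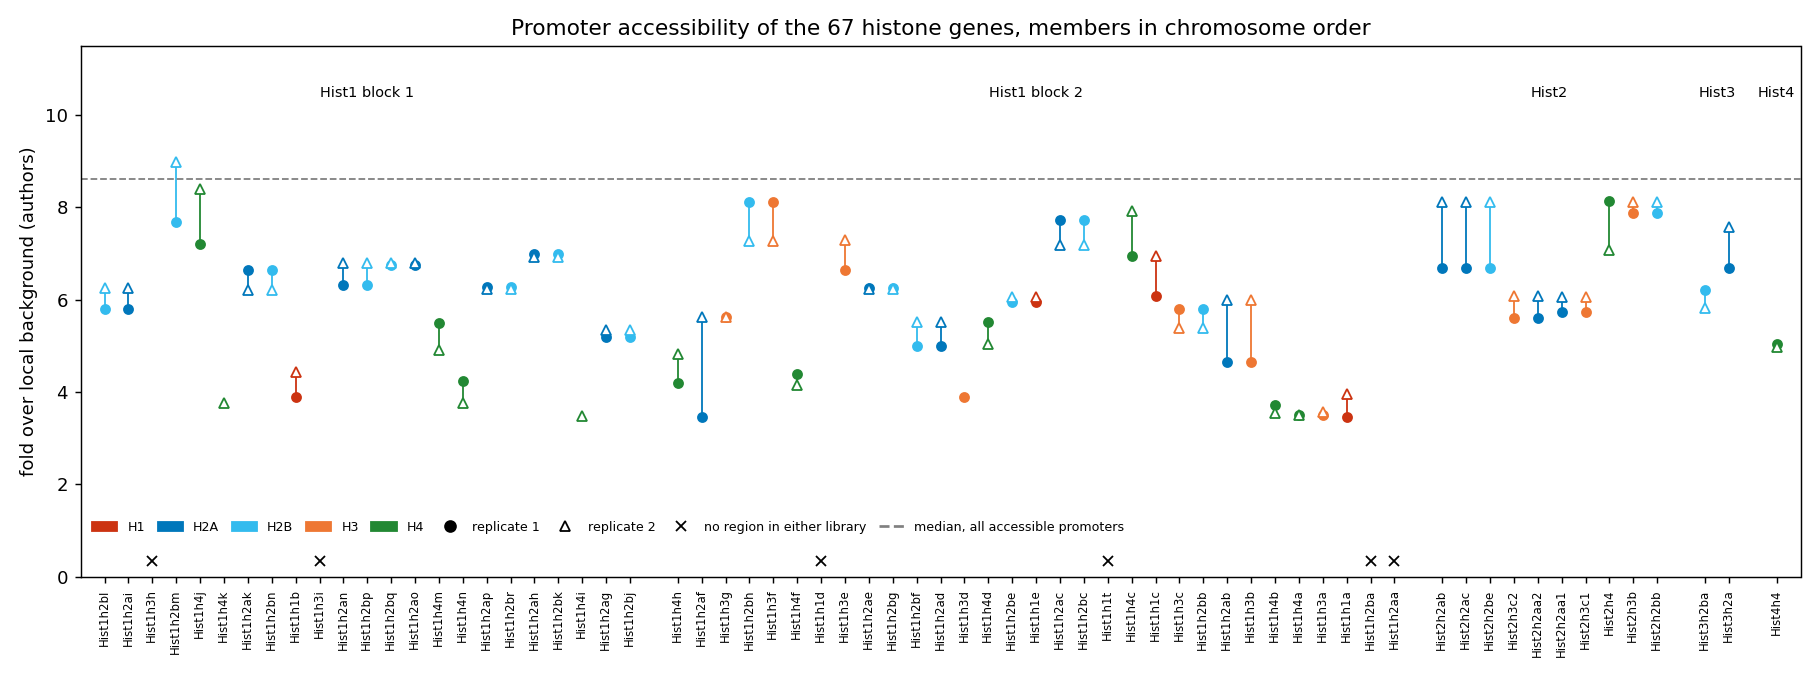
Fold over local background (y) of the strongest region over each of the 67 histone promoters in replicate 1 (circles) and replicate 2 (open triangles), in chromosome order within each cluster and coloured by type. Crosses mark the 6 genes with no region in either library, and the dashed line is the median of all accessible promoters, 8.62, which only Hist1h2bm passed, in replicate 2.

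Of the 9 genes not called in both libraries, 6 had no region in either. Hist1h1t, Hist1h2ba and Hist1h2aa, which encode histones of the testis, had none in the pseudoreplicated lists either. Hist1h2ba and Hist1h2aa form the pair at the far end of the second block. The H3 genes Hist1h3h and Hist1h3i had regions in the pseudoreplicated lists, with folds of 2.93 in replicate 1 and 3.53 in replicate 2 for Hist1h3h, and 2.84 and 3.01 for Hist1h3i.

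The sixth, the H1 gene Hist1h1d, turned on the annotation. Its GENCODE TSS lies 1828 bp upstream of its start codon, and no region overlapped that window. At the start codon a region at chr13:23554895-23556365 had a fold of 4.80 in replicate 1, and one at chr13:23554898-23556335 had 5.03 in replicate 2. RefSeq places the start of the gene there, at position 23555032. With the start codon in place of the TSS, a choice made after seeing the data, 59 of 67 histone genes were called, beside 33.2% of all genes.

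A second annotation case was Hist1h2be, an H2B gene whose GENCODE TSS lies 35138 bp from its start codon and inside the region of the H1 gene Hist1h1e. That region had 5.95 in replicate 1 and 6.07 in replicate 2. A separate region at the start codon of Hist1h2be, chr13:23585896-23586187 in replicate 1, had 5.11 in replicate 1 and 5.56 in replicate 2.

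The other 3 genes were called in 1 library only. The H4 genes Hist1h4k and Hist1h4i had a region in replicate 2, with 3.75 and 3.49, and the H3 gene Hist1h3d had one in replicate 1, with 3.90. In the pseudoreplicated lists all 3 had regions in both libraries. Hist1h4k had 3.53 in replicate 1 there, Hist1h4i 2.91 in replicate 1, and Hist1h3d 3.67 in replicate 2, so all 3 lay at the low end of the histone folds.

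Repeated sequence touches many of these calls. The share of 31-base words that occur once on the main chromosomes, over 500 bp to either side of the TSS, was under 10% for 8 genes. It was 0 for Hist1h2ao, Hist1h2ap, Hist1h2bq and Hist1h2br, and the others were Hist1h4m, Hist1h4n, Hist2h3c1 and Hist2h3c2. All 8 were called, and their reads may be shared with their copies. Of the other 59 genes, 50 were called, with the same median fold of 6.12. These 59 are not free of repeated sequence, since the median share over all 67 genes was 63.2%. Among them it was 27.2% for Hist2h2aa2 and 48.2% for Hist1h2bm, while Hist2h2bb reached 97.1%.

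Head-to-head H2A and H2B genes showed 1 open region between them. There were 12 such pairs, with 176 to 306 bp (median 259.5 bp) between the TSSs. In both libraries, 11 of 12 had a single region over both TSSs with its strongest summit between them, and the pair without one was Hist1h2ba with Hist1h2aa. The share among other head-to-head genes at this spacing was not counted, so the pattern is not shown to be particular to histone genes. The median fold of the 11 was 6.33 in replicate 1 and 6.27 in replicate 2. The pair Hist1h2ac with Hist1h2bc had the highest in replicate 1, with 7.73, and had 7.18 in replicate 2. The lowest in replicate 1 was Hist1h2bf with Hist1h2ad, with 4.99, and 5.51 in replicate 2. A 13th pair, the H2B gene Hist1h2bh and the H3 gene Hist1h3f, stood 660 bp apart, and its region did not reach both TSSs.

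Summits lay on different sides of the TSS by type. Over the 54 genes with a summit at their own TSS, the median distance was -79.25 bp, where negative is upstream, and 45 were upstream, against a median of -54 bp for all genes. All 17 H2B summits were upstream, at a median of -112 bp. For H2A the median was -91.25 bp and 15 of 16 were upstream, and for H3 it was -94 bp and 7 of 7 were upstream. The H2A and H2B counts are not independent, since 11 head-to-head pairs have 1 summit counted once from each side. A summit between their TSSs is upstream of both by layout. H4 summits centred on the TSS, at a median of -5 bp with 5 of 10 upstream, and those of the 4 H1 genes had a median of 30.25 bp with 1 upstream.

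**Figure D3:**
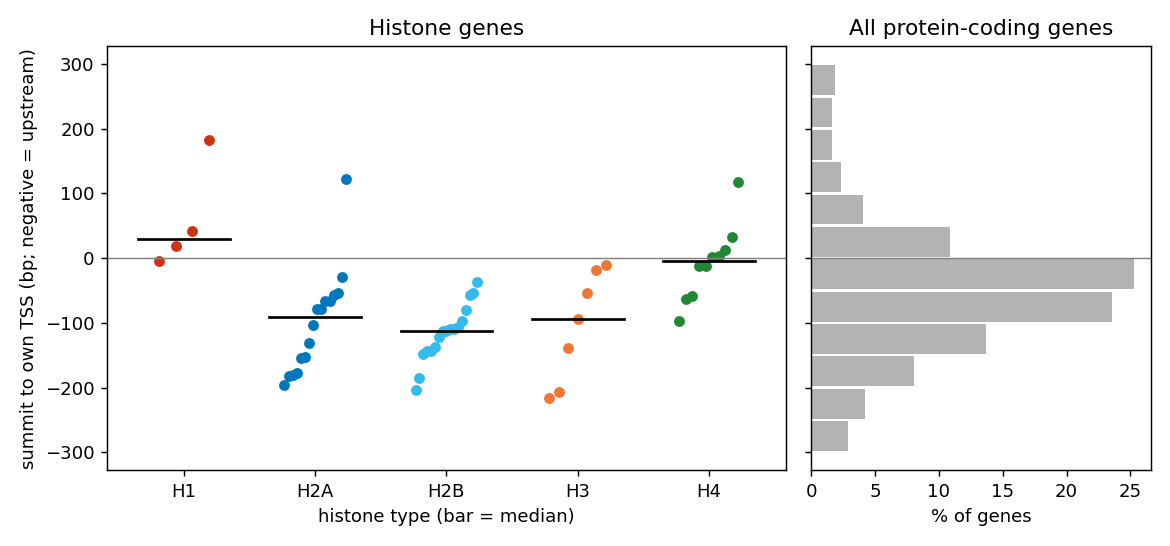
Distance from the strongest summit to the gene's own TSS (y, bp, mean of the libraries) for 54 histone genes by type on the left, with bars at the medians, and its distribution over all genes with such a summit on the right (x, percent of genes per 50 bp). H2B genes lie wholly upstream, with a median of -112 bp, while H4 genes spread around the TSS, with a median of -5 bp.

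Promoter sequences of the types differ, and the promoter with the strongest summit at its own TSS is shown here for each type to set the motifs beside the summits, with Hist1h2ba, which had no region, as a contrast. Each runs 5′ to 3′ from 200 bases before the RefSeq start to 20 after it, from RefSeq on build GRCm38.p6, and capitals mark matches to the motifs named after them. Hist1h1c lies at chr13:23738607-23738826 on the plus strand and Hist1h2ac at chr13:23683940-23684159 on the minus strand. Hist1h2bm lies at chr13:21721844-21722063 on the plus strand and Hist1h3e at chr13:23562366-23562585 on the minus strand. Hist1h4j lies at chr13:21734834-21735053 on the plus strand and Hist1h2ba at chr13:23934137-23934356 on the minus strand, with its annotated start at its start codon. The H3 gene Hist1h3e, not described so far, had a fold of 6.64 in replicate 1 and 7.29 in replicate 2. Its summit lay 93 and 95 bp upstream of its GENCODE TSS. Summit distances count from the GENCODE TSS and the sequences from the RefSeq start, and these can differ.
Hist1h1c: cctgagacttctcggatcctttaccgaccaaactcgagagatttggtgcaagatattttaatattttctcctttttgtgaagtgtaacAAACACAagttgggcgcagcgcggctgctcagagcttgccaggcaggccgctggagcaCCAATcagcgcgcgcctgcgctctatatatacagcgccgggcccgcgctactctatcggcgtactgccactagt
Hist1h2ac: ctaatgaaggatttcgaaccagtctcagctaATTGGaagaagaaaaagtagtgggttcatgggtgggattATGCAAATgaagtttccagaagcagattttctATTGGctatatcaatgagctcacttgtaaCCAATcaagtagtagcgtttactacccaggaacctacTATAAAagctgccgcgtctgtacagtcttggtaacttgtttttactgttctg
Hist1h2bm: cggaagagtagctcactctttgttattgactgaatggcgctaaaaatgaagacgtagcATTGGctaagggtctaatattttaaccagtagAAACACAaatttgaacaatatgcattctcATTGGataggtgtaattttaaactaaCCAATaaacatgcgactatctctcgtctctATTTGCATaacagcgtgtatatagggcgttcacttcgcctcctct
Hist1h3e: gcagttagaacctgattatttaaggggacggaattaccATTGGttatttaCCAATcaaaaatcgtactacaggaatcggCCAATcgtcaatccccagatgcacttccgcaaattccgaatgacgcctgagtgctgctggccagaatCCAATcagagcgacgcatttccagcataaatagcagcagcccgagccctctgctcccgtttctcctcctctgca
Hist1h4j: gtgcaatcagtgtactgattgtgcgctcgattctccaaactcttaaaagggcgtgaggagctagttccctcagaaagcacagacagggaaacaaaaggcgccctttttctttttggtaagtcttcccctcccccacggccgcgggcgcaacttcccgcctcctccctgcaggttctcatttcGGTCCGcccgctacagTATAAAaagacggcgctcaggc
Hist1h2ba: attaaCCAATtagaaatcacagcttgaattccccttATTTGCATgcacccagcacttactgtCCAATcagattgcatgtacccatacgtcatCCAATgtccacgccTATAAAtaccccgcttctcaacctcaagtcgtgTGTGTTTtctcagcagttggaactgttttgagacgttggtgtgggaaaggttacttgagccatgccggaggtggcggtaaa

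The motifs were searched on both strands in the 300-base window of the RefSeq promoter table (250 before to 50 after the start), which matched 62 of 67 histone genes and did not list Hist1h3f, Hist1h2bc, Hist1h3a, Hist2h2be and Hist2h4. They were the octamer ATTTGCAT, the CCAAT box CCAAT, the TATA box TATAAA, the H1 box AAACACA, the H4 element core GGTCCG and the E2F site TTTCGCGC. Among the histone promoters 1 pair of matches overlapped. A match describes letters and is not a bound site.

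The octamer, bound by Pou2f1, was found in 7 of 18 H2A and 7 of 16 H2B promoters and in 0 of 28 of the other types, beside 1.74% of all 32851 promoters. Its first base lay at a median of -59 from the RefSeq start in H2B promoters and -129 in H2A promoters. Hist1h2bm, shown above, held it at -25. The CCAAT box was found in all 6 H1, 18 H2A, 16 H2B and 10 H3 promoters but in 3 of 12 H4 promoters, beside 37.4% of all promoters.

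The H1 box was found in 5 of 6 H1 promoters, 2 of 18 H2A and 2 of 16 H2B promoters, beside 7.18% of all. In Hist1h1c it began at -112 and the CCAAT box at -54. The H4 element core, which Hinfp binds, was found in 11 of 12 H4 promoters, beside 8.25% of all, and in 1 H2B and 1 H3 promoter. Its median position in H4 promoters was -46, and in Hist1h4j it began at -18. These positions count from the RefSeq start. The GENCODE TSS of Hist1h4j, used for its summit, is at position 21735064, downstream of the RefSeq start and past the end of the sequence shown.

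The TATA box was found in 35 of 62 histone promoters (56.5%), beside 13.6% of all. The E2F site was found in 5 H2A and 4 H2B promoters, beside 0.323% of all. Windows of head-to-head genes overlap, so the 9 E2F matches were 5 distinct sites, the 14 octamer matches 11 and the 144 CCAAT matches 109. Among accessible and other histone promoters, the octamer was found in 12 of 53 accessible and 2 of 9 other histone promoters, the CCAAT box in 46 of 53 and 7 of 9, and the TATA box in 27 of 53 and 8 of 9. The H1 box was found in 5 of 53 accessible and 4 of 9 other promoters, the H4 element core in 10 of 53 and 3 of 9, and the E2F site in 9 of 53 and 0 of 9. This split follows the IDR-thresholded calls at the GENCODE TSS. Hist1h1d, with a region at its RefSeq start, thus counts among the 9 and holds an H1 box, a CCAAT box and TATA boxes. Hist1h3h, Hist1h3i, Hist1h4k, Hist1h4i and Hist1h3d, also among them, had regions in both pseudoreplicated lists. The H1 boxes of Hist1h2ba and Hist1h2aa are 1 site. Hist1h2ba, with no region in any list used, held an octamer, 4 CCAAT boxes, a TATA box and an H1 box, all but the farthest CCAAT box within the sequence shown.

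**Figure D4:**
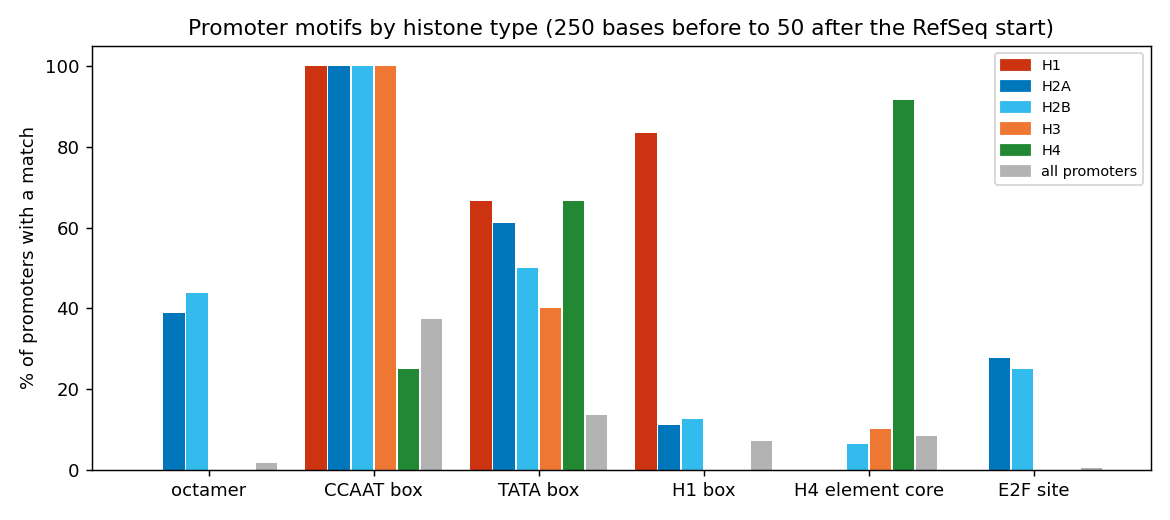
Percent of promoters with a match to each of 6 motifs (y) for the 5 histone types and for all 32851 promoters in grey, counted on both strands from 250 bases before to 50 after the RefSeq start. The H4 element core stands in 91.7% of H4 promoters and the H1 box in 83.3% of H1 promoters, while the octamer was found in H2A and H2B promoters alone among the types.

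Past the coding sequence, the histone stem-loop was searched as a stem of 6 pairs that starts with GG around a loop of 4 bases that starts with TT, within 150 bases after the stop codon. It was found in 64 of 67 histone genes, a median of 31.5 bases (22 to 59) after the stop codon, beside 0.582% of 4471 other genes on the same chromosomes. By type it was found in 6 of 6 H1, 18 of 18 H2A, 17 of 18 H2B, 11 of 12 H3 and 12 of 13 H4 genes, and Hist2h2be, Hist1h3g and Hist1h4a held no match. There were 7 forms, and the commonest of H1, H2A, H2B and H3 genes, found in 41 genes, differed from that of H4 genes, found in 8. They are shown with the stem in capitals from RefSeq GRCm38.p6, for Hist1h2bm at chr13:21722506-21722521 on the plus strand and Hist1h4c at chr13:23698089-23698104 on the minus strand.
Hist1h2bm: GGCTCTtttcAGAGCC
Hist1h4c: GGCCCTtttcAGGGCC

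Several histone genes were open at their far end as well. A summit lay 0 to 500 bp past the stop codon and over 300 bp from any protein-coding TSS, in both libraries, for 15 of 67 histone genes (22.4%), beside 0.869% of all protein-coding genes. Histone genes are short, so the same count was taken among genes with a stop codon within 1 kb of a TSS, where it was 14 of 65 histone genes (21.5%), beside 1.65% of 2608 genes. This rule was set after the summits had been seen. The count was 4 of 6 for H1, 7 of 13 for H4, 2 of 18 for H2A, 2 of 12 for H3 and 0 of 18 for H2B genes.

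These summits lay 36 to 422 bp past the stop codon, with a median fold of 4.63 in replicate 1 and 4.92 in replicate 2. In 5 genes they were stronger than the summit at the TSS in both libraries. Hist1h1c, an H1 gene, had 6.08 in replicate 1 and 6.95 in replicate 2 past the stop codon, against 5.65 and 6.00 at its TSS. Another H1 gene, Hist1h1e, had 5.95 and 6.07 there, against 4.81 and 4.48 at its TSS.

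The H4 gene Hist1h4m had 5.50 in replicate 1 and 4.91 in replicate 2 past the stop codon, against 4.12 and 3.91 at its TSS, within mostly repeated sequence. Hist1h4h and Hist1h1b were the other two. In 3 genes the TSS was stronger in both libraries, among them Hist1h4j, with 6.10 and 6.70 past the stop codon against 7.21 and 8.40 at its TSS. Of all distinct summits in the histone windows, 55 of 89 in replicate 1 and 56 of 92 in replicate 2 lay within 300 bp of a histone TSS. Within 500 bp after a stop codon lay 21 and 23, and 6 in each lay in coding sequence.

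The clusters were dense in open regions, most of them in histone promoter windows. In the conservative list the first Hist1 block held 140 regions per Mb and the second 114, and the Hist2 cluster held 199, against 17.5 per Mb on the main chromosomes outside assembly gaps. Regions covered 8.02%, 6.46% and 16.6% of these stretches, against 1.07% of the main chromosomes. The stretches run from the first to the last histone gene, so the promoters counted above weigh heavily in these figures. Histone promoter windows held 25 of 46 regions in the first block, 32 of 46 in the second and 9 of 10 in Hist2. Away from promoters the densities were 54.9, 24.8 and 19.9 per Mb, against 12.4 on the main chromosomes, and the Hist2 value rests on 1 region. Between the Hist1 blocks the density was 18.2 per Mb for all regions and 14.8 per Mb away from promoters.

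Across the clusters 51 regions lay away from every protein-coding TSS (over 1 kb), 50 in the Hist1 span and 1 in Hist2. They include the regions at the start codons of Hist1h1d and Hist1h2be described above, which lie away from the GENCODE TSSs alone. Relative to protein-coding genes, the summits of the 51 were intergenic in 43, intronic in 7 and exonic in 1. Some of the 43 lie in annotated genes of other kinds, such as Gm20627. The Hist1 span is also rich in transfer RNA (tRNA) genes, and 33 of its 50 regions lay within 1 kb of such a gene. Of 22 such regions between the blocks 20 did so, as did 13 of 18 in the first block and 0 of 10 in the second, which holds no tRNA gene. A region of the conservative list overlapped 29 of 77 tRNA genes in the Hist1 span (37.7%), beside 43.7% of 403 on the main chromosomes. In both IDR-thresholded lists the shares were 7.79% and 24.1%.

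The 3 strongest of the regions away from promoters had folds above every histone promoter of the same library. The region chr3:96254688-96255037, in the Hist2 cluster within the annotated gene Gm20627, had a fold of 10.9 in replicate 1 and 11.2 in replicate 2. An intronic region of the long Hist1h2be transcript, chr13:23595698-23596476, had 11.3 and 9.80.

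The region chr13:22050406-22051481, just past the first Hist1 block, overlapped the tRNA gene n-TSgct5 and had 8.61 in replicate 1 and 10.3 in replicate 2. A second intronic region of Hist1h2be, chr13:23609195-23610025, had 7.83 in replicate 1 and 9.36 in replicate 2. An intergenic region in the first block, chr13:21840512-21840941, had 6.91 and 9.75. The summits of these 5 lay 6917 to 14579 bp from the nearest protein-coding TSS.

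A list of genes tied to histone supply was open throughout. It held regulators of histone transcription and of the processing of histone messages. It also held histone chaperones such as Asf1a and Nasp, general polyadenylation factors such as Cstf3, and cell-cycle genes such as Cdk2. Of 39 names listed, Mizf and Symplk were not in the annotation, and the other 37 genes all had an accessible promoter in both libraries, beside 45.7% of all genes, with a median fold of 7.50 in replicate 1 and 8.28 in replicate 2. Npat had 10.1 in replicate 1 and 10.98 in replicate 2, and Casp8ap2, needed with Lsm11 to cleave histone messages, had 12.7 and 12.97. Hinfp had 13.8 and 13.8. Slbp, which binds the stem-loop, had 7.35 and 7.97, Lsm11 had 6.73 and 7.43, and Pou2f1 had 6.16 and 6.01.

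Replication-independent histone genes, which are expressed outside S phase, were accessible in both libraries in 7 of 14 cases, a share near the 45.7% of all genes. Of the H3.3 genes, H3f3a had 5.74 in replicate 1 and 5.53 in replicate 2, and H3f3b had 7.08 and 8.28. H2afz, which encodes H2A.Z, had 7.15 and 7.28. H1fx had a region in replicate 2 alone, with 7.29, and H2afy in replicate 1 alone, with 6.05. No region was found for H1f0, H1foo, H1fnt, H2afy2 and H2afb1 in either IDR-thresholded list. For the linker histone gene H1f0 the pseudoreplicated lists held regions of 4.59 and 3.89.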

How the data were processed

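The deposited files are narrowPeak lists on mm10 (GRCm38), per the file headers. The authors' deposited ratio column holds the fold over local background of each peak, the deposited −log10 p column its significance, and the deposited score the −log10 global IDR of the ranked lists, which was read for the histone regions and is not printed. IDR-thresholded and pseudoreplicated lists are per library, and the conservative list pools both. Of the aligner, the peak caller and the Tn5 offset the sources used here give nothing.

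Peaks on the 21 main chromosomes that overlap or touch were merged with Python 3.11.15 and numpy 2.4.6. A region carries its strongest fold and summit, and a gene the strongest region over its TSS ± 1 kb, over 54361 TSSs of protein-coding transcripts. Blocks were split at gaps over 200 kb. There is 1 group, so no test was run, and counts stand beside the share of all genes. Calls, motif search and word counts were tested on simulated data.

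Genes named were the 5 highest and 5 lowest by mean fold, all of Hist2, Hist3 and Hist4, those without a call or with a call in 1 library, and the 5 strongest regions away from promoters. Fixed genes of the other lists were named with them, and any further name was picked with its values in view. The members and lists were chosen with earlier results of these data known. Alternatives were other lists, windows, distances and thresholds and leaving out each library. Of the erythroid and megakaryocyte marker list, 1 gene is not reported here.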

Additional observations from a re-analysis of the deposited data

How the results depend on the processing

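Of 33 alternatives, 26 left the value within 1.5 times its count or within 1 SD. Some of these outcomes were fixed in advance and say nothing of robustness. The median fold of 1 library always lies within 1 SD of the mean of 2. Nor could removing 8 genes move the count of 58 past the limit. Without the 8 genes of mostly repeated sequence, the count of 58 accessible histone promoters was 50 of 59. Otherwise it ranged from 55 to 63 of 67 under all but 1: with only the upper 50% of regions by fold it was 3, beside 27.7% of all genes. The median fold of 6.12 was 5.95 in the pseudoreplicated lists and 6.02 to 6.22 with 1 library. The 51 regions away from promoters were 21 in both IDR-thresholded lists, 17 in the upper 50% by fold, and 24 to 27 in the IDR-thresholded list of 1 library, where list and library changed together. The 15 genes with a summit past the stop codon were 34 in the pseudoreplicated lists, beside 2.25% of all genes, and 19 to 22 with 1 library. The cause was not tested. The 54 genes with a summit at their own TSS ranged from 44 to 61. The start codon, the removal of repeated genes and the rules past the stop codon were chosen after seeing the data. No paired analysis was possible because there is 1 group. Depth is unknown, so a missing region says only that the authors' lists hold none.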

Other observations

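Histone pseudogenes lie among the accessible regions too. Hist1h2aj, a pseudogene head to head with Hist1h2bm, lay under the same region, with a fold of 7.68 in replicate 1 and 8.996 in replicate 2. Hist3h2bb-ps shared the region of Hist3h2a, with 6.70 in replicate 1 and 7.57 in replicate 2. Hist1h2al, which lies outside the cluster at chr13:51202727-51203065, had a region of 11.02 in replicate 1 and 8.93 in replicate 2 within 1 kb, but no summit within 300 bp of its start.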
